A study of Drosophila melanogaster with 18 samples.

Results

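The nuclear genes for the proteins of the mitochondrial ribosome were followed in whole Drosophila melanogaster of 2 genotypes at 3 stages around the start of metamorphosis. Members were all gene entries of the authors' deposited tables that hold a symbol beginning with mRpL or mRpS, whatever their values, which gave 73 of 14542 entries. Of these, 47 encode proteins of the large subunit and 26 proteins of the small subunit. The fly annotation of Ensembl lists 73 symbols of this form, and each was found. Controls were the white-eyed laboratory strain w1118. The other flies carried the Nxt1 alleles DG05102 and Z2-0488 in trans and are labelled as strain yw. Genotype and strain background therefore cannot be told apart, and the lesions of the 2 alleles are not described in the labels. Nxt1 encodes the small partner of the messenger RNA export receptor sbr.

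Each genotype was sampled 3 times as wandering larvae, as stationary larvae and as white prepupae, 18 samples in all, and the labels do not say whether the 3 were grown separately. Stages were separated by the gut colour left by food with 0.05% bromophenol blue, by movement and by the white pupal case. For each genotype and stage the authors' deposited table holds 1 pooled FPKM (fragments per kilobase of transcript, normalised for sequencing depth), so the spread between replicates cannot be shown and the depth of each sample is unknown. Every error after a log2 fold change is a standard error taken from the authors' test statistic. A member was called when the authors' deposited q-value was at most 0.05, and "rose" and "fell" are used of called genes only. Each stage has its own controls, and its table was scaled on its own. All 73 members were tested by the authors at every stage.

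The mitochondrial ribosome translates the few messenger RNAs that the mitochondrial genome encodes, which specify subunits of the respiratory chain and of ATP synthase. Its RNAs come from the mitochondrial genome, while its proteins come from nuclear genes, are made by cytoplasmic ribosomes and are imported. About its bacterial core, whose proteins keep bacterial numbers, it has gained many proteins of its own. Of the members, 42 carry numbers within the bacterial series (up to L36 and S21) and 31 carry other numbers. No entry of the genes encoded by mitochondrial DNA was matched, so their transcripts were not analysed here.

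Members were expressed at low to middle levels. The median member stood at 11.1 FPKM in w1118 and 12.7 FPKM in trans-heterozygotes among wandering larvae, at 12.3 and 13.8 FPKM among stationary larvae, and at 11.1 and 13.4 FPKM among prepupae. The member entries, 3 of them merged with a neighbouring gene, together made up 0.159% to 0.247% of the summed FPKM of all genes.

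The highest member was mRpS5, a small-subunit protein of the bacterial core, with 76.1 and 87.8 FPKM in control and trans-heterozygous wandering larvae, 83.3 and 96.0 FPKM among stationary larvae, and 93.3 and 115 FPKM in prepupae. The next entries were cdi,mRpL55 and CG10602,mRpL13, with means over the 6 values of 80.7 and 77.3 FPKM, but each merges the member with a neighbouring gene. The transcript of mRpL13 alone stood between 9.84 and 16.6 FPKM. The transcript of mRpL55 alone stood between 36.7 and 68.3 FPKM and was not tested by the authors. mRpL33, a small protein of the large subunit, followed with a mean of 57.3 FPKM, and mRpS6, of the small subunit, with 40.1 FPKM. The lowest members were mRpL42 at 3.27 FPKM, mRpL43 at 5.56 FPKM and mRpS33 at 5.72 FPKM on the same mean. The highest member stood 28.1-fold above the lowest on this scale. Within a member the highest of the 6 values was less than 2-fold above the lowest in 57 of 73 cases, with a median ratio of 1.59 and a maximum of 4.17, in mRpS33.

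Summed over all entries, merged ones included, the ratio of the 2 subunits varied little. The summed FPKM of the large subunit was 1.83 times that of the small subunit in control wandering larvae and 1.80 times in trans-heterozygous ones. In stationary larvae the ratios were 1.82 and 1.78, and in prepupae 1.85 and 1.86. The 6 ratios thus lay between 1.78 and 1.86, while the summed FPKM of all members was higher in trans-heterozygotes than in w1118 at each stage: 1339 against 1226 FPKM, 1440 against 1277 FPKM, and 1495 against 1274 FPKM in order of stage. The large-subunit sums include all 3 merged entries, which also count a neighbouring gene, so these are not ratios of the members alone. Entries with no other symbol summed to 1038, 1083 and 1076 FPKM in w1118 in order of stage, and 1150, 1269 and 1305 FPKM in trans-heterozygotes. Of these, the small subunit made up 434, 454 and 447 FPKM in w1118, and 478, 517 and 522 FPKM in trans-heterozygotes. Without the merged entries the ratio is thus lower at each stage in both genotypes. It is then also higher in trans-heterozygotes than in w1118 at each stage, so the narrow range depends on the merged entries. All of these are sums of pooled values and carry no test. In whole animals, fewer cells of a type and less RNA per cell cannot be told apart.

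Few members were called singly between the genotypes. The members' median standard error was wider than that of all tested genes at each stage, so the shares below are at unlike precision. Among wandering larvae 0 of 73 members were called, where 2.29% of all tested genes were called higher and 9.49% lower. Among stationary larvae 1 member rose and 1 fell, against 4.7% and 13.2% of all tested genes. Among prepupae 2 members rose and 1 fell, against 4.03% and 12.9%. At an unadjusted p under 0.05, members higher in trans-heterozygotes numbered 1, 5 and 3 in order of stage, against 4.31%, 7.58% and 6.94% of all tested genes. Members lower numbered 0, 1 and 1, against 13.9%, 18.3% and 18.6%. All 5 calls came from 4 genes, mRpL19, mRpL30, mRpS9 and mRpL54.

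**Figure D1:**
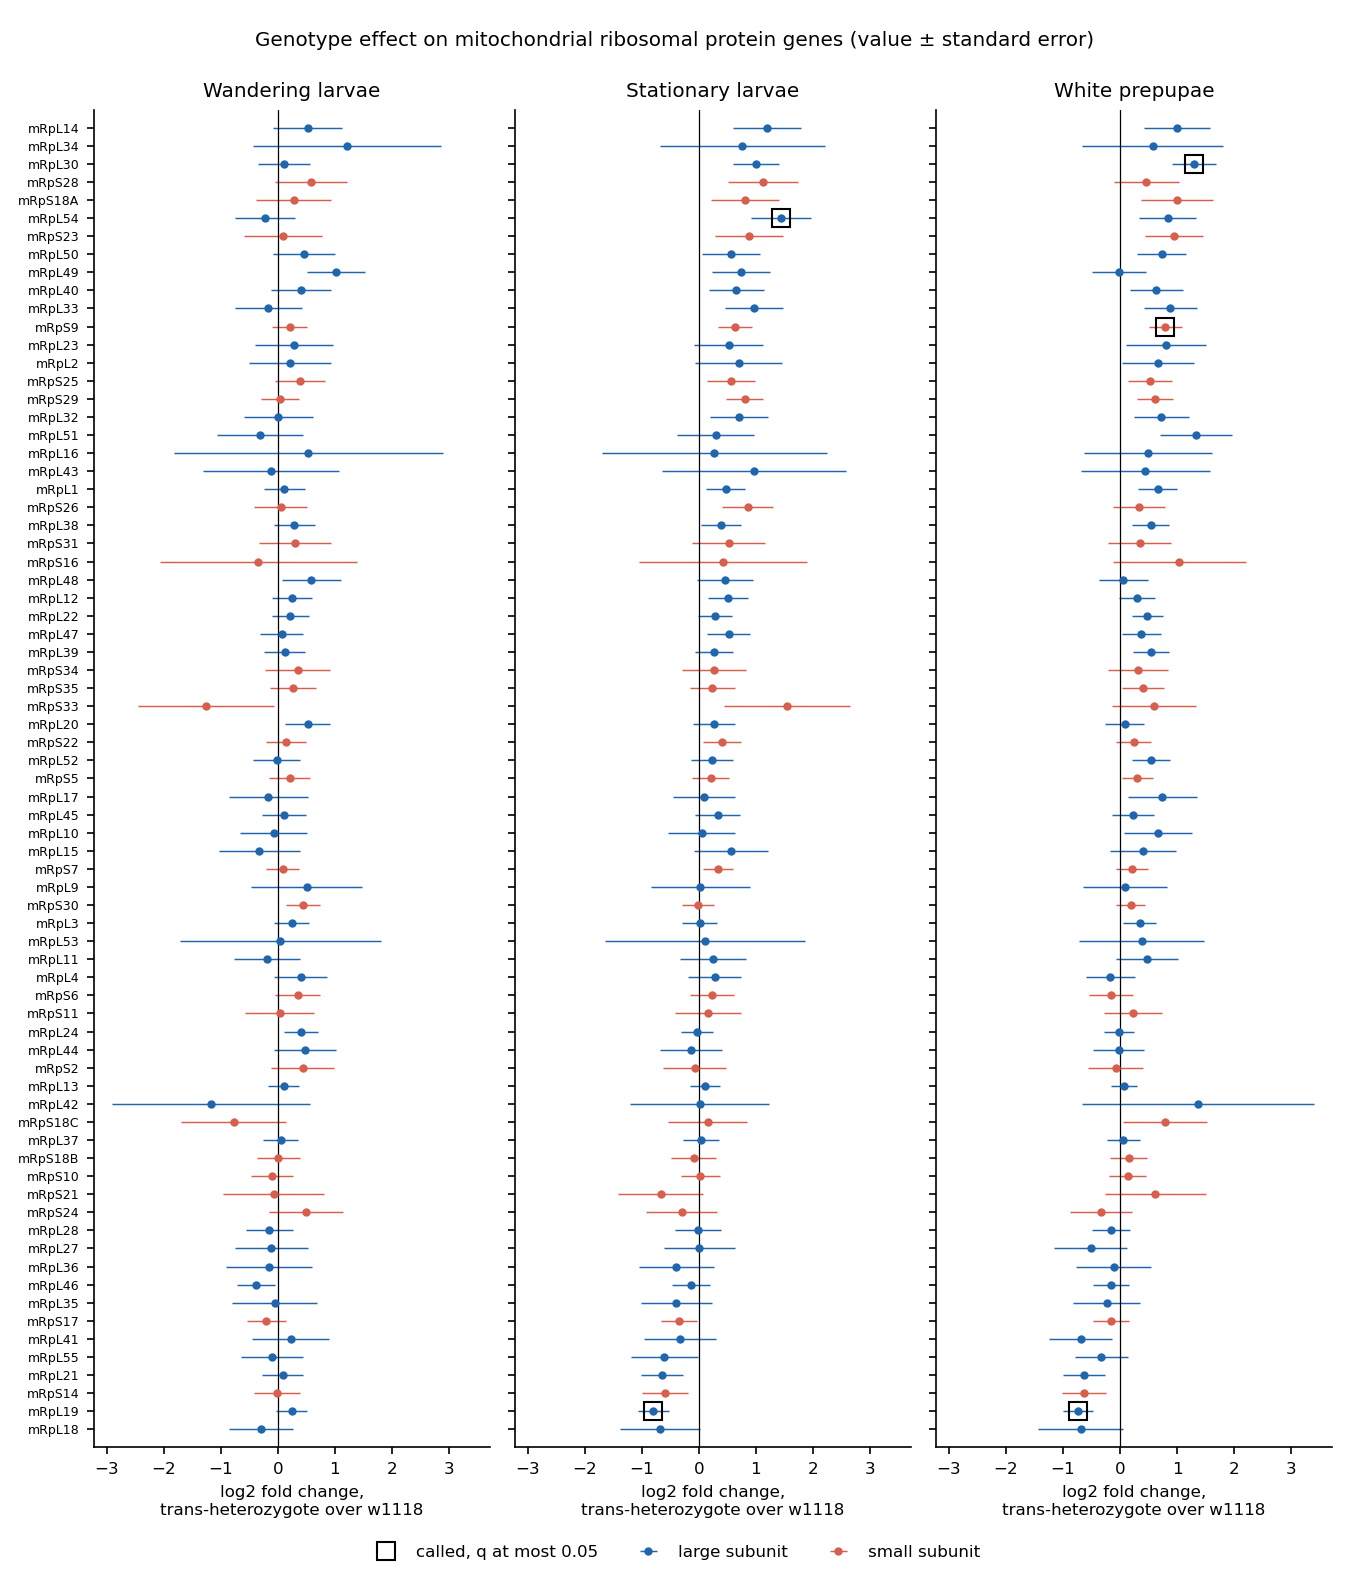
Log2 fold change of the trans-heterozygote over w1118 (horizontal axis) for each of the 73 members (rows, ordered by their mean over the stages), with bars of 1 standard error from the authors' test statistic. Blue marks large-subunit and red small-subunit genes, and boxes mark the 5 calls, with 0 among wandering larvae, 2 among stationary larvae and 3 among prepupae.

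mRpL19, named after a protein at the surface of the bacterial large subunit, was the only member called at 2 stages. Its level in the authors' deposited table was 31.2 FPKM in control and 36.9 FPKM in trans-heterozygous wandering larvae, 40.0 and 23.0 FPKM among stationary larvae, and 33.2 and 19.9 FPKM in prepupae. The trans-heterozygotes were thus the higher genotype among wandering larvae and the lower one at both later stages. Among stationary larvae mRpL19 fell by 0.80 ± 0.27 on the log2 scale (SE from 3 against 3 pooled samples, Cuffdiff q = 0.0214), to a level 1.74-fold below w1118. In prepupae it fell by 0.74 ± 0.26 (Cuffdiff q = 0.0321). The change among wandering larvae was 0.24 ± 0.27 (Cuffdiff q = 0.885). The call in prepupae was lost when fold changes were centred on the median of all tested genes, with a log2 change of -0.69 and an adjusted p of 0.0512. mRpL19 lies on chromosome arm 3R, at 4499831 to 4500918 in the authors' coordinates (no source used here names their build), and shares this span with no other entry.

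The largest rise past the threshold in prepupae was that of mRpL30, another protein of the bacterial core of the large subunit. It stood at 20.1 FPKM in control and 21.8 FPKM in trans-heterozygous wandering larvae, at 20.0 and 40.1 FPKM among stationary larvae, and at 15.3 and 37.4 FPKM in prepupae. The trans-heterozygote value was the higher one at each stage. Its log2 fold change was 0.11 ± 0.46 among wandering larvae and 1.01 ± 0.40 among stationary larvae (Cuffdiff q = 0.0642), and it rose by 1.29 ± 0.38 in prepupae (Cuffdiff q = 0.00626). This was the only member called at a q of at most 0.01. mRpL30 shares its X-chromosome locus, 4541910 to 4543865, with Torsin, the fly member of the torsin ATPases. Torsin stood at 16.1 and 27.0 FPKM in prepupae and rose there by 0.75 ± 0.28 (Cuffdiff q = 0.0491). Since the counting is not described, reads of the 2 overlapping genes may have been shared.

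mRpS9, whose bacterial counterpart reaches the peptidyl transfer RNA in the small subunit, had 20.5 and 23.8 FPKM in control and trans-heterozygous wandering larvae, 18.8 and 29.1 FPKM among stationary larvae, and 16.8 and 29.2 FPKM in prepupae. Trans-heterozygotes were the higher genotype at each stage. The log2 fold change was 0.21 ± 0.31, then 0.63 ± 0.30 (Cuffdiff q = 0.154), and mRpS9 rose by 0.80 ± 0.28 in prepupae (Cuffdiff q = 0.0319). Its neighbours CG10092 and wtrw on arm 3R, which share its span, were not called at any stage.

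mRpL54, a protein of the large subunit without a bacterial counterpart, was called among stationary larvae. Its level was 7.43 FPKM in control and 6.37 FPKM in trans-heterozygous wandering larvae, 4.16 and 11.4 FPKM among stationary larvae, and 5.73 and 10.2 FPKM in prepupae. Trans-heterozygotes were lower first and higher at both later stages. The rise among stationary larvae was 1.45 ± 0.53 (Cuffdiff q = 0.0367), while its only transcript had q = 0.0528 in the authors' isoform table, which tests more features. In prepupae the log2 fold change was 0.83 ± 0.50 (Cuffdiff q = 0.301). mRpL54 lies on arm 2R at 16948284 to 16949092 and shares this span with no other entry.

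**Figure D2:**
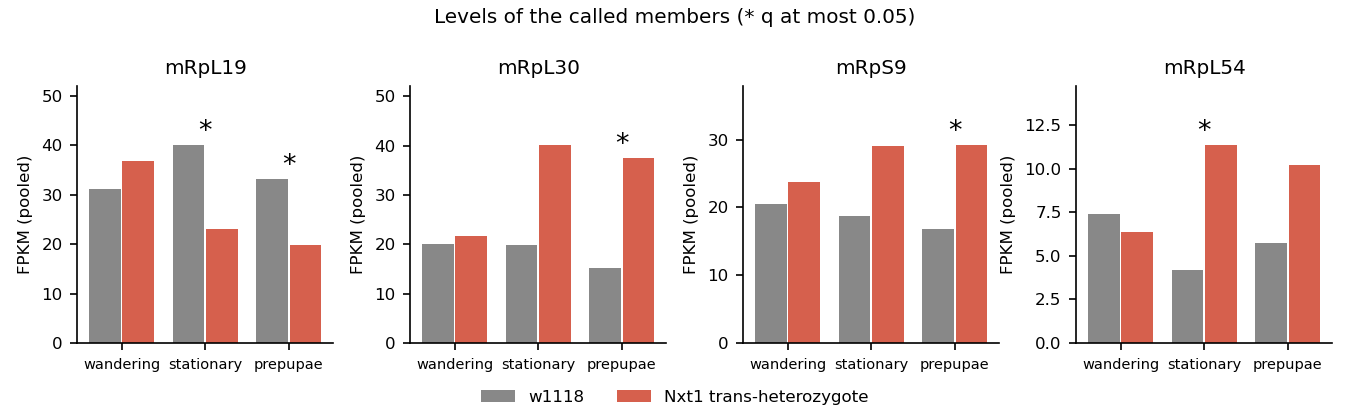
Pooled FPKM (vertical axis, from 0) of the 4 members called at any stage, by stage, with w1118 in grey and trans-heterozygotes in red and a star over each of the 5 calls. Pooled values have no error bars. mRpL19 is the one of the 4 that was lower in trans-heterozygotes at the later stages, at 23.0 against 40.0 FPKM and 19.9 against 33.2 FPKM.

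Uncalled members with an unadjusted p under 0.05 were mRpL49 among wandering larvae, mRpL14, mRpL30, mRpS9 and mRpS29 among stationary larvae, and mRpL51 in prepupae, and all of them were higher in trans-heterozygotes. Among wandering larvae mRpL49, which has no bacterial counterpart, stood at 6.63 FPKM in w1118 and 13.5 FPKM in trans-heterozygotes, a log2 fold change of 1.02 ± 0.50 (Cuffdiff q = 0.242). In prepupae it stood at 9.50 and 9.36 FPKM. mRpS29, the fly homologue of the GTP-binding protein DAP3, stood at 7.76 and 13.5 FPKM among stationary larvae, a log2 fold change of 0.80 ± 0.33 (Cuffdiff q = 0.0744). mRpL14, of the bacterial core, stood at 5.29 and 12.1 FPKM at that stage, with 1.20 ± 0.60 (Cuffdiff q = 0.180). mRpL51 stood at 8.30 and 20.9 FPKM in prepupae, with 1.33 ± 0.63 (Cuffdiff q = 0.145). None of these passed the q threshold, and their errors are wide. Beyond an unadjusted p of 0.05 members lay on both sides: mRpL33 stood at 39.0 and 76.5 FPKM among stationary larvae and 52.5 and 96.9 FPKM in prepupae (Cuffdiff q = 0.206 and 0.208). mRpL21 was nominally lower, at 41.2 and 26.4 FPKM among stationary larvae and 39.3 and 25.3 FPKM in prepupae (Cuffdiff q = 0.277 and 0.280).

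As a set, members leaned toward the trans-heterozygotes. The nominal direction was higher for 49 of 73 members (67.1%) among wandering larvae, 55 (75.3%) among stationary larvae and 54 (74.0%) in prepupae, against 48.9%, 46.1% and 45.1% of all tested genes. The median of log2((FPKM + 1) ratios) over the members was 0.10, 0.25 and 0.32 in order of stage, against -0.01, -0.04 and -0.05 over all tested genes. Centring on the medians of all tested genes, which lie below 0, can only raise these values, and gave 0.11, 0.29 and 0.37. No other scaling was tried. The interquartile range of the members ran from -0.09 to 0.33 among wandering larvae, from 0.01 to 0.52 among stationary larvae and from -0.02 to 0.57 in prepupae. Members are not replicates of one another, and these counts carry no test.

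The medians lay above 0 in both subunits and in proteins with and without bacterial numbers. Median ratios of the large and the small subunit were 0.10 and 0.11 among wandering larvae, 0.25 and 0.24 among stationary larvae, and 0.37 and 0.30 in prepupae. Proteins with bacterial numbers had 0.09, 0.17 and 0.29 in order of stage, and the others 0.11, 0.35 and 0.36. Members that share a locus span with another entry, 40 of 73, had 0.11, 0.26 and 0.41. The 33 whose span no other entry shares had 0.10, 0.22 and 0.20, but they include the merged entries of mRpL55 and mRpL13. Members with a mean under 10 FPKM had 0.08, 0.46 and 0.42, and those at 10 FPKM or more had 0.11, 0.21 and 0.25. The median standard errors of the low members were 0.63, 0.60 and 0.58, against 0.41, 0.40 and 0.37. By chromosome arm the direction was not the same throughout. On 2R among wandering larvae the median was -0.06, with 5 of 12 members higher (41.7%), against 49.0% of all tested genes of that arm. The medians in prepupae ran from 0.06 on 2L (12 members) to 0.46 on 2R (12 members) and 0.46 on the X (11 members), while those of all tested genes lay between -0.07 and -0.03 on every arm. None of these differences between groups of members was tested.

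**Figure D3:**
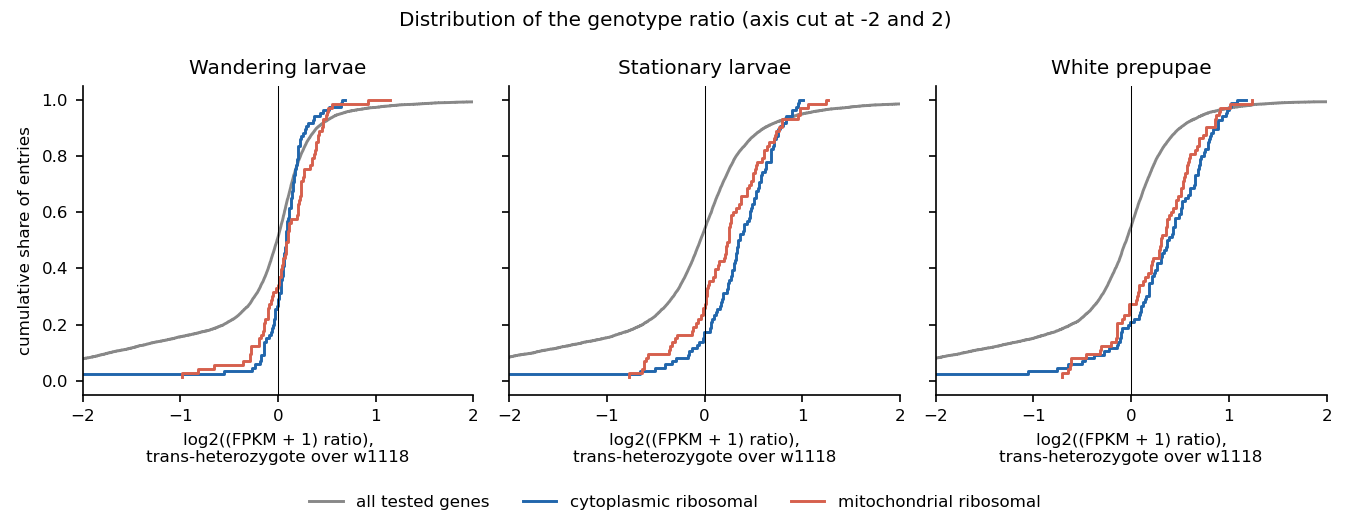
Cumulative share of entries (vertical axis) by log2((FPKM + 1) ratio) of the trans-heterozygote over w1118 (horizontal axis, shown from -2 to 2) for all tested genes, cytoplasmic ribosomal protein genes and mitochondrial ribosomal protein genes. The curve of the mitochondrial set lies to the right of all genes over most of its range, with medians of 0.10, 0.25 and 0.32 in order of stage.

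Values of proteins named for their place in the ribosome, picked for their role after the values were seen, illustrate the size of the shifts in single members. Of the stalk, which in bacteria recruits the elongation factors, mRpL12 stood at 16.7 FPKM in w1118 and 23.6 FPKM in trans-heterozygotes among stationary larvae, a log2 fold change of 0.50 ± 0.35 (Cuffdiff q = 0.421). Its bacterial anchor corresponds to mRpL10, which stood at 11.1 and 11.5 FPKM at that stage. Of the proteins that line the exit tunnel in bacteria, mRpL4 stood at 10.6 and 12.8 FPKM and mRpL22 at 18.9 and 23.0 FPKM among stationary larvae, with q of 0.833 and 0.686. mRpL24, an early assembly protein of the bacterial large subunit, stood at 31.3 and 30.5 FPKM. Of the core near the peptidyl transferase centre, mRpL2 stood at 5.21 and 8.44 FPKM, with 0.70 ± 0.76 (Cuffdiff q = 0.687), and mRpL3 at 14.3 and 14.4 FPKM. None of these members was called at any stage.

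The precision of single members limits these comparisons. The median standard error of a member's log2 fold change was 0.53, 0.51 and 0.46 in order of stage, against 0.34, 0.34 and 0.30 over all tested genes. The 95% interval lay within a 2-fold change in either direction for 25, 16 and 20 of the 73 members, so for the others a change of 2-fold in one direction or both stays within the error. mRpL16, which shares its locus with another entry, had the largest standard error, 2.36 among wandering larvae, at 9.73 and 14.1 FPKM. Of the lowest members, mRpS33 stood at 5.69 and 2.38 FPKM among wandering larvae and 2.51 and 7.29 FPKM among stationary larvae, with log2 fold changes of -1.26 and 1.54 and standard errors above 1, and neither passed the threshold.

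The share of members with 1 nominal direction at all 3 stages was near that of all genes, at 61.6% against 61.5%, but its split was not alike. Of the 73, 37 (50.7%) were nominally higher in trans-heterozygotes at all 3 stages, against 26.7% of the 10284 genes tested at each stage. Another 8 (11.0%) were lower at all 3 stages, against 34.8%. The 8 were mRpL18, mRpL28, mRpL35, mRpL36, mRpL46, mRpL55 (as the entry merged with cdi), mRpS14 and mRpS17. Across the 73 members Pearson's r of the log2 fold changes was 0.67 between stationary larvae and prepupae, 0.07 between wandering and stationary larvae and -0.18 between wandering larvae and prepupae. Over all genes the 3 values were 0.92, 0.91 and 0.90. For the 70 members with a mean of at least 5 FPKM at each stage the 3 values were 0.73, 0.25 and -0.06, so those with wandering larvae moved with the lowest members left out. These are correlations across genes, which are not independent replicates, and the stages share no samples. The members' log2 fold changes ran from -1.26 to 1.21 among wandering larvae, against -9.44 to 6.07 over all tested genes, and their standard errors were wider. A narrow range with wide errors lowers r, so r of the members cannot be compared directly with r of all genes.

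The change in genotype effect from one stage to another was tested for each gene, from the 2 log2 fold changes and their standard errors with Benjamini-Hochberg adjustment over all genes tested at both stages. No member was called at any of the 3 pairs of stages, where 0.66% (stationary against wandering), 0.861% (prepupae against stationary) and 1.06% (prepupae against wandering) of all genes were called. At an unadjusted p under 0.05 there were 2, 0 and 2 members, against 4.27%, 4.21% and 5.56% of all genes. The smallest q belonged to mRpL19, whose effect differed by -1.04 ± 0.38 on the log2 scale between wandering and stationary larvae (Benjamini-Hochberg q = 0.341) and by -0.98 ± 0.38 between wandering larvae and prepupae (q = 0.344). The difference for mRpL54 between wandering and stationary larvae was 1.67 ± 0.75 (q = 0.805), and that for mRpL30 between wandering larvae and prepupae was 1.18 ± 0.60 (q = 0.883). The calls of the 4 genes at later stages are thus not shown to differ from their values among wandering larvae.

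**Figure D4:**
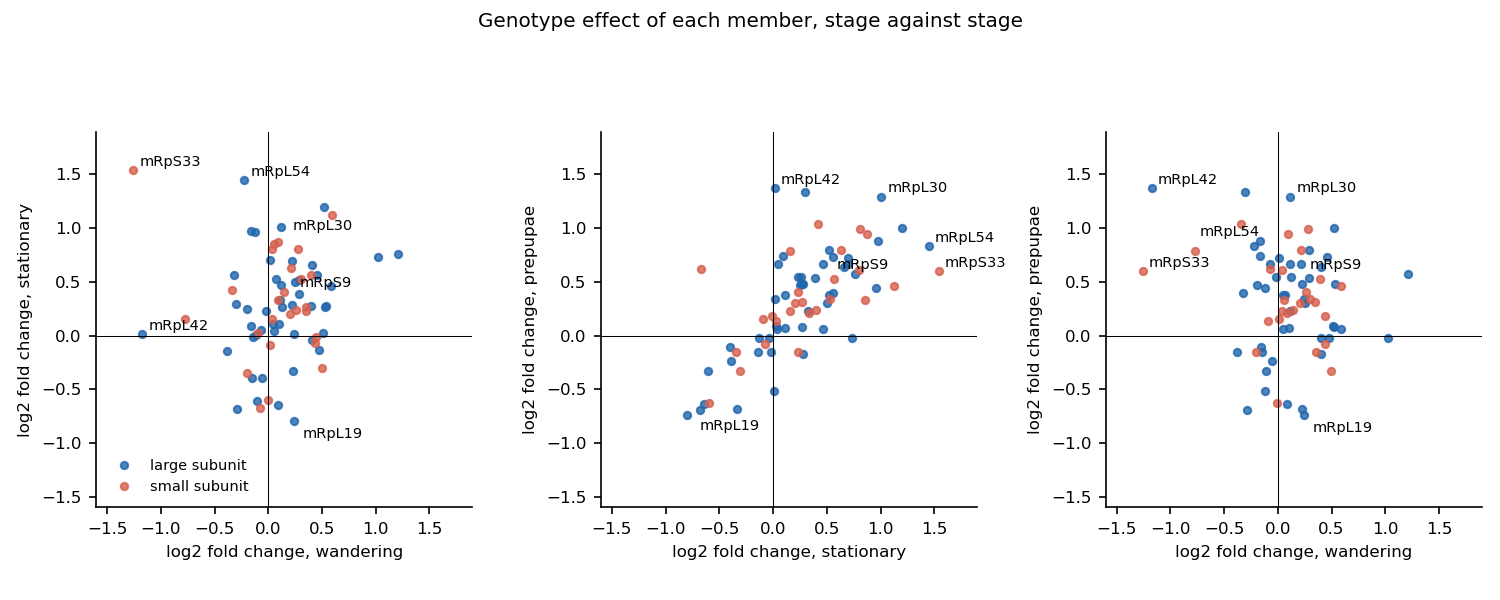
Log2 fold change of the trans-heterozygote over w1118 at one stage against that at another for the 73 members, with large-subunit genes in blue and small-subunit genes in red. Points follow a diagonal between stationary larvae and prepupae (r = 0.67) and form a cloud in the panels with wandering larvae (r = 0.07 and -0.18, or 0.25 and -0.06 for the 70 members with a mean of at least 5 FPKM at each stage).

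The one call in the authors' splicing table was mRpS16, a small-subunit protein whose bacterial counterpart acts in assembly. That table tests, within a group of transcripts from one start site, whether their shares differ between genotypes, and scores the Jensen-Shannon divergence as its square root, 0 for equal shares and 0.833 for shares with nothing in common. Among wandering larvae mRpS16 had 0.833 (Cuffdiff q = 0.000874), and it was the only one of the 7 member groups tested there to be called, against 2.69% of all tested groups. Among stationary larvae it had 0.784 (Cuffdiff q = 0.176), and in prepupae it was not tested. No member group was called at those stages, of 10 and 11 tested, where 5.88% and 9.78% of all tested groups were called.

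The shares of mRpS16 turned on 2 of its 3 transcripts. TCONS_00010558 stood at 6.12 FPKM in control wandering larvae and 6.53 FPKM in control stationary larvae and was listed at 0 in both groups of trans-heterozygotes. TCONS_00010556 was listed at 0 in both control groups and stood at 4.84 and 6.68 FPKM in the trans-heterozygotes. The 2 genotypes thus shared neither of these transcripts at these stages. The third transcript, TCONS_00010557, stood at 0.413 and 2.62 FPKM in control and trans-heterozygous stationary larvae and was listed at 0 elsewhere. In prepupae TCONS_00010556 was the main transcript of both genotypes, at 4.70 and 9.79 FPKM, and TCONS_00010558 stood at 0.0632 FPKM in w1118 and was listed at 0 in trans-heterozygotes. The transcript of the control larvae was therefore nearly missing from control prepupae as well. Neither transcript was called at the isoform level, with q from 0.323 to 0.697 where tested. The level of the whole gene was 6.12 and 4.84 FPKM, 6.94 and 9.29 FPKM, and 4.76 and 9.79 FPKM in order of stage, with standard errors of the log2 fold change from 1.16 to 1.73, and was not called. mRpS16 shares its locus on arm 2R, 10057971 to 10061133, with CG8331, which stood far above it at 104 to 175 FPKM. A value of 0 in these tables can be a failed estimate, and the splicing p of 1e-05 is the smallest in the table, shared by 17 groups among wandering larvae.

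**Figure D5:**
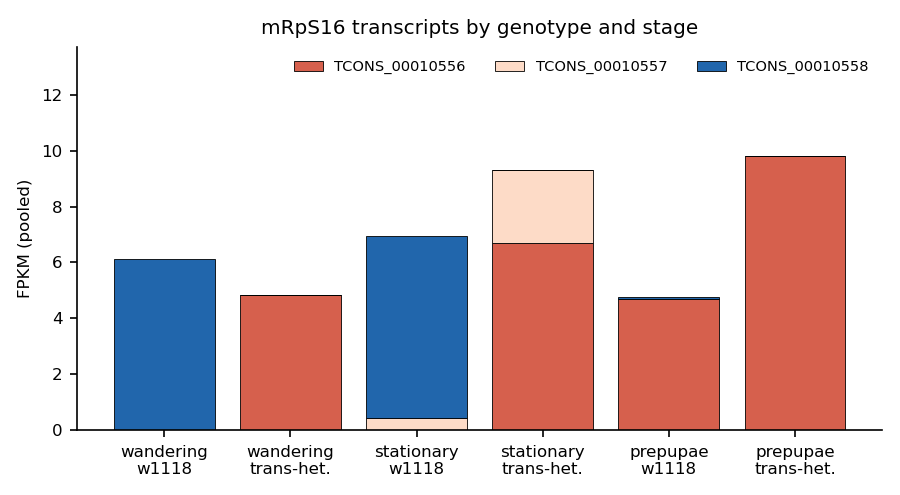
Pooled FPKM (vertical axis, stacked, from 0) of the 3 mRpS16 transcripts in each genotype and stage. Blue (TCONS_00010558) fills the bars of control wandering and stationary larvae, and red (TCONS_00010556) fills or dominates the trans-heterozygotes and both groups of prepupae.

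At the isoform level 95 transcripts belonged to members, and 16 members had more than 1. The authors tested 72, 74 and 74 of the 95 in order of stage. Called transcripts numbered 0 among wandering larvae, 1 among stationary larvae and 3 in prepupae, against 7.36%, 11.3% and 12.2% of all tested isoforms. They were those of mRpL19 (Cuffdiff q = 0.0320 and 0.0420), mRpL30 (q = 0.00862) and mRpS9 (q = 0.0417), each the only transcript of its gene. A second transcript of mRpL14, TCONS_00030019, was listed at 0 in w1118 at each stage and stood at 0.487, 3.45 and 3.34 FPKM in trans-heterozygotes. The splicing score of mRpL14 was 0.333 among stationary larvae (Cuffdiff q = 0.236) and 0.316 in prepupae (q = 0.246). TCONS_00015771 of mRpL23, whose bacterial counterpart sits at the rim of the exit tunnel, was likewise listed at 0 in w1118 and stood at 2.92, 6.39 and 1.51 FPKM. None of these passed the threshold.

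Genes of cytoplasmic ribosomal proteins stood at medians of 598 to 624 FPKM in w1118. Of 86 tested entries 2 rose and 1 fell among wandering larvae, 27 rose and 2 fell among stationary larvae, and 37 rose and 5 fell in prepupae. Of all tested genes 2.29%, 4.7% and 4.03% were called higher in order of stage, and 9.49%, 13.2% and 12.9% lower. Their own median log2((FPKM + 1) ratios) were 0.08, 0.36 and 0.40. Their median standard errors were 0.21, 0.20 and 0.15 on the log2 scale, against 0.53, 0.51 and 0.46 in the mitochondrial set, and no difference between the 2 sets was tested.

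The mitochondrial ribosomal protein genes tko and bonsai, which carry other names, were not called at any stage. The gene tko, which encodes mitochondrial S12, stood at 10.2 and 9.87 FPKM in control and trans-heterozygous wandering larvae, 9.42 and 14.1 FPKM among stationary larvae, and 12.0 and 16.3 FPKM in prepupae. bonsai, which encodes mitochondrial S15, stood at 16.7 and 20.8 FPKM, 16.8 and 17.3 FPKM, and 16.7 and 17.6 FPKM. Factors that act with the ribosome had medians closer to 0 at the later stages. Of 12 mitochondrial translation factors 0 were called at each stage, with median log2((FPKM + 1) ratios) of 0.07, -0.01 and -0.06. Of 16 mitochondrial transfer RNA synthetases none rose and 1, 2 and 2 fell, which is near the 9.49%, 13.2% and 12.9% of all tested genes called lower. The synthetase for tryptophan, CG7441, fell at each stage, from 28.9 to 11.6 FPKM among stationary larvae (Cuffdiff q = 1.64e-05). The synthetase for cysteine, CG8257, stood at 16.4 and 9.21 FPKM among wandering larvae (q = 0.0678) and fell among stationary larvae, from 20.4 to 9.19 FPKM (Cuffdiff q = 0.00152), and in prepupae. Of 16 genes for the copying and expression of mitochondrial DNA 0 were called at each stage, with medians of -0.03, 0.17 and 0.16.

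The members' proteins reach the ribosome through the import machinery, and the list used for it mixes general genes with paralogues of such genes. Its calls were all lower. Of 26 import genes none rose, and 5, 8 and 8 fell in order of stage, where 9.49%, 13.2% and 12.9% of all tested genes were called lower, with median log2((FPKM + 1) ratios) of -0.34, -0.37 and -0.40. Ratios in the list were widely spread, with lower quartiles of -2.13, -2.58 and -2.34 and upper quartiles of -0.03, -0.03 and 0.01. Nominally higher were 26.9%, 23.1% and 26.9% of the list in order of stage, against 48.9%, 46.1% and 45.1% of all tested genes. General genes and paralogues were not compared, so the falls are not shown to be those of the import machinery as a whole. The chaperonin gene Hsp60C stood at 68.4 FPKM in w1118 and 6.34 FPKM in trans-heterozygotes among wandering larvae, and it fell at each stage. Hsp60B and ttm2 also fell at each stage, to 1.34 and 0.652 FPKM in stationary larvae from 22.7 and 15.6 FPKM. Hsp60C, Hsp60B, ttm2, ttm3, tomboy20 and Tim17a1 are paralogues of general import or folding genes. Hsc70-5, the main mitochondrial Hsp70, stood at 62.3 and 46.3 FPKM in prepupae and fell there by 0.43 ± 0.16 (Cuffdiff q = 0.0393). Beside these falls, 20 of 35 listed testis transcripts fell at each stage and none rose, and the summed level of that list was 1103 and 137 FPKM, 1467 and 208 FPKM, and 1200 and 164 FPKM in w1118 and trans-heterozygotes. Its part in the import result was not tested.

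Nxt1 itself, at 9.28 to 17.9 FPKM, was not called at any stage, so its level does not check the labels. Markers of fat body, salivary gland, muscle, haemocytes, gut and neurons were all present above 0. Muscle markers (Mhc, Act57B and up) summed to 641 FPKM in control and 1179 FPKM in trans-heterozygous wandering larvae, 150.4 and 571 FPKM among stationary larvae, and 63.9 and 77.3 FPKM in prepupae, with 2, 3 and 0 of 3 called higher. Both haemocyte markers rose among wandering larvae, Hml from 9.38 to 16.2 FPKM and Pxn from 18.3 to 29.9 FPKM, and 1 of 2 rose at each later stage. Their sums were 27.7 and 46.0 FPKM, 14.9 and 20.8 FPKM, and 9.76 and 15.2 FPKM in order of stage. Of the gut markers Amy-p rose among larvae, from 33.2 to 182 FPKM at the wandering and from 15.4 to 132 FPKM at the stationary stage. Jon65Aiii fell in prepupae, from 567 to 424 FPKM. Of 3 fat body markers Lsp1beta alone was called, and it rose from 1007 to 2224 FPKM among stationary larvae. Neither neuronal marker found was called. Both salivary glue markers rose among stationary larvae and in prepupae, where they summed to 89.3 and 363 FPKM. The part of these differences in the members' lean was not tested.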

How the data were processed

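RNA sequencing of whole animals gave 18 samples, 3 per genotype and stage, grouped by their titles. Per the labels' protocols, libraries were made with the ScriptSeq kit from 0.5 µg of total RNA and read as paired ends of 100 bases. Bowtie 1.1.1, Cufflinks and Cuffdiff are named in the submitters' processing notes; the sources used here give no settings, strand handling, genome build or annotation.

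The authors deposited 1 pooled FPKM per genotype and stage, and 12 of their 18 tables were used. The log2 fold change and the test statistic are deposited scores, and the p-value and q-value are the authors' own, per the file headers. The splicing score, a square-rooted Jensen-Shannon divergence, was also deposited by the authors. The tables hold no counts or replicate values, so no model was fitted over samples, depth is unknown, and precision rests on the authors' statistic.

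The standard error is the size of the log2 fold change over that of the statistic. The deposited p followed from the normal tail within 1 percent for 73 of 73 members at each stage, and q was the Benjamini-Hochberg adjustment over tested entries. Differences of effect between stages were tested with a two-sided normal test, adjusted over all genes tested at both stages. A pseudocount of 1.0 FPKM was used for ratios. P-values measure the spread as modelled by Cuffdiff, which may be technical. Alternatives were a q threshold of 0.01, a pseudocount of 0.1 or none, minimum mean FPKM, start-site groups, unmerged entries, recomputed q and centring.

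Members and lists were chosen with earlier results of these data known. Genes were named by a rule: mRpS16, called members, the 5 highest and 3 lowest, tko and bonsai, and up to 3 called genes per related list and stage; further import genes, the members near the threshold, those nominally lower throughout and those picked for role were named after their values were seen. The listed symbols waw, PolG2 and Tim14 matched no entry. Python 3.11.15, pandas 2.3.3, numpy 2.4.6 and scipy 1.17.1 were used.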

Additional observations from a re-analysis of the deposited data

How the results depend on the processing

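No paired analysis was possible because the deposited tables hold 1 pooled value per genotype and stage and no replicate columns, and no fit without a replicate could be made for the same reason. Of the alternatives to counts and medians, 28 concern a count of 0 that stayed at 0, which says little of stability. Of the other 47, 40 stayed within 1.5 times the count or within the error and 7 did not. For medians the error was the median standard error of a single member, 0.53, 0.51 and 0.46 in order of stage. It exceeds the medians themselves, so those alternatives could hardly fail. Recomputing q repeats the authors' adjustment, and no called member entry was merged, so these 2 settings could not change a gene count. The 40 are thus no measure of stability. At a q of at most 0.01, 0 members rose and 0 fell among stationary larvae, and 1 (mRpL30) rose and 0 fell in prepupae. At that threshold 0 isoforms were called among stationary larvae and 1 in prepupae. With fold changes centred on the median of all tested genes, which stood at -0.00, -0.04 and -0.05 log2 units in order of stage, 0 members fell in prepupae, where mRpL19 had an adjusted p of 0.0512. Of 25 alternatives for called members, 5 lost the call and 0 reversed. The members' median log2((FPKM + 1) ratio) lay between 0.10 and 0.11 among wandering larvae, 0.25 and 0.29 among stationary larvae and 0.31 and 0.37 in prepupae. Sample depth is unknown, so precision rests on the authors' statistic alone.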

Other observations

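From stage to stage the members' median in w1118 lay near 0. In w1118, 39 of 73 members were higher in stationary than in wandering larvae, with a median log2 ratio of 0.05, against 69.2% of the 10284 genes tested at every stage, with a median of 0.15. Between stationary larvae and prepupae of w1118, 35 members were higher at the later stage, with a median of -0.02, against 42.7% and -0.04 over all genes. In trans-heterozygotes 47 and 40 members were higher at the later stage of the same 2 steps, against 64.5% and 46.2% of all genes. The tables of the stages were scaled separately, so these ratios carry no test.

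Some members lie beside genes with larger changes. CG4091, which shares the locus of mRpL43, fell at each stage, from 71.5 to 23.4 FPKM among wandering larvae, while mRpL43 stood at 5.68 and 5.21 FPKM there and was not called. Of the 40 members that share a span, 1, 3 and 4 had a called neighbour in order of stage. Over all tested genes, 11.8%, 17.9% and 16.9% were called in either direction. A transcript of mRpL21, TCONS_00018054, stood at 35.4 and 18.6 FPKM among stationary larvae and 30.0 and 14.5 FPKM in prepupae, but the authors' table marks it as having too little data for a test. In prepupae mRpL42 had a splicing score of 0.711 (Cuffdiff q = 0.196), with its whole level at 1.81 and 4.67 FPKM.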
